A study of Arabidopsis thaliana with 6 samples.

Results

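The salicylate pathway and pathogenesis-related (PR) genes followed here are 10 loci of Arabidopsis thaliana, given in advance as a list and found by locus identifier in a table of 21693 genes. All 10 were present and all 10 passed the filter on low counts. RNA-seq was done on shoots of 8-day-old seedlings of the phod1 mutant and of the wild type (WT), with 3 samples of each genotype, all grown at 23 °C on nutrient-rich 1/2 MS agar with 1.0% sucrose in a cycle with 16 h of light and 8 h in the dark. The labels name no other allele, treatment or agent, and they do not say which gene phod1 affects or whether the mutant line is a single isolate, so the genotype labels could not be tested on a mutated gene. Whether the 3 samples of a genotype were grown apart is not stated either, and p-values therefore rest on a spread between samples that may be technical.

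Salicylate is the plant hormone of defence against pathogens that feed on living tissue. In Arabidopsis most of it derives from isochorismate, which isochorismate synthase (ICS1) makes in the chloroplast, EDS5 exports and PBS3 joins to glutamate. The transcription factors CBP60G and SARD1 switch ICS1 on, the lipase-like proteins EDS1, PAD4 and SAG101 relay signals from immune receptors, and NPR1 is the salicylate receptor that, with TGA factors, activates output genes such as PR1, PR2 and PR5.

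The output genes PR1 and PR2 were far higher in phod1 than in WT shoots, whereas the other members differed by less than 1 log2 unit or did not pass the test. PR1 was at 0 in every WT library and at least 41.5-fold higher in phod1, and PR2 was 97.7-fold higher. The transcription factor gene SARD1 was 1.73-fold higher, while its relative CBP60G and the signalling gene PAD4 were lower, by 0.84 and 0.43 on the log2 scale. PR5, EDS1, SAG101, ICS1 and NPR1 did not pass the test. With the quasi-likelihood test of edgeR, Benjamini-Hochberg adjustment over all genes and a threshold of 0.05, 3 of the 10 members were higher and 2 lower. Across all 10803 genes tested 27.7% passed, 14.6% as higher and 13.0% as lower. PR1 and PR2 reached the filter's count minimum in every phod1 library but not in every WT library. PR1 reached it in no WT library, and so could pass the filter only by standing higher in phod1. PR2 also reached it in some WT libraries. Of the 8 members that reached it in both genotypes, 1 was higher (12.5%), 2 were lower (25.0%) and 5 did not pass. All genes tested under that same condition gave 14.3% higher and 13.8% lower.

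Values below are CPM, a gene's count as a share of the scaled size of its library. Library sizes were scaled by TMM, a factor that balances the libraries over most genes, and errors are SDs over 3 libraries. Estimated counts summed to between 33183463 and 33932995 units in the phod1 libraries and between 34226295 and 54720319 units in the WT libraries, and 1 sequenced fragment was worth about 4 units by the spacing of low values. A floor of 3 fragments in a library stood at 0.309 to 0.321 CPM in phod1 and at 0.256 to 0.404 CPM in WT. These floors, and the counting intervals given for low genes, hold counting error alone. The TMM factors were 1.10 to 1.17 in phod1 and 0.857 to 0.907 in WT, and with library totals alone the median log2 fold change of all genes moved by 0.38, so fold changes are given relative to most genes. On totals alone 3544 genes were higher and 618 lower, against 1581 higher and 1407 lower with TMM. Libraries of a genotype had correlations of log2 CPM of 0.945 to 0.951 and libraries of different genotypes 0.885 to 0.893, so no library stood apart. Summed shoot markers stood at 20200 to 24800 CPM in phod1 and 35500 to 42200 CPM in WT for 7 of 8 listed genes. Of these the photosynthesis genes LHCB1.1, LHCB2.1 and CA1 were lower, with log2 fold changes of -0.66, -0.97 and -1.82. The leaf development genes AS1 (109 CPM in phod1 and 107 CPM in WT) and YAB1 (16.4 CPM in phod1 and 17.9 CPM in WT) did not pass, nor did RBCS1B and GLDP1. Summed root markers other than PYK10, of which EXPA7 was at 0 throughout, stood at 1.03 to 1.18 CPM in phod1 and 1.51 to 2.35 CPM in WT, and their part in the results was not tested. With PYK10, a beta-glucosidase of roots and hypocotyls, the sum of the root list was 230 to 278 CPM in phod1 and 212 to 238 CPM in WT. In whole shoots, fewer cells of a type and less RNA per cell cannot be told apart.

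**Figure D1:**
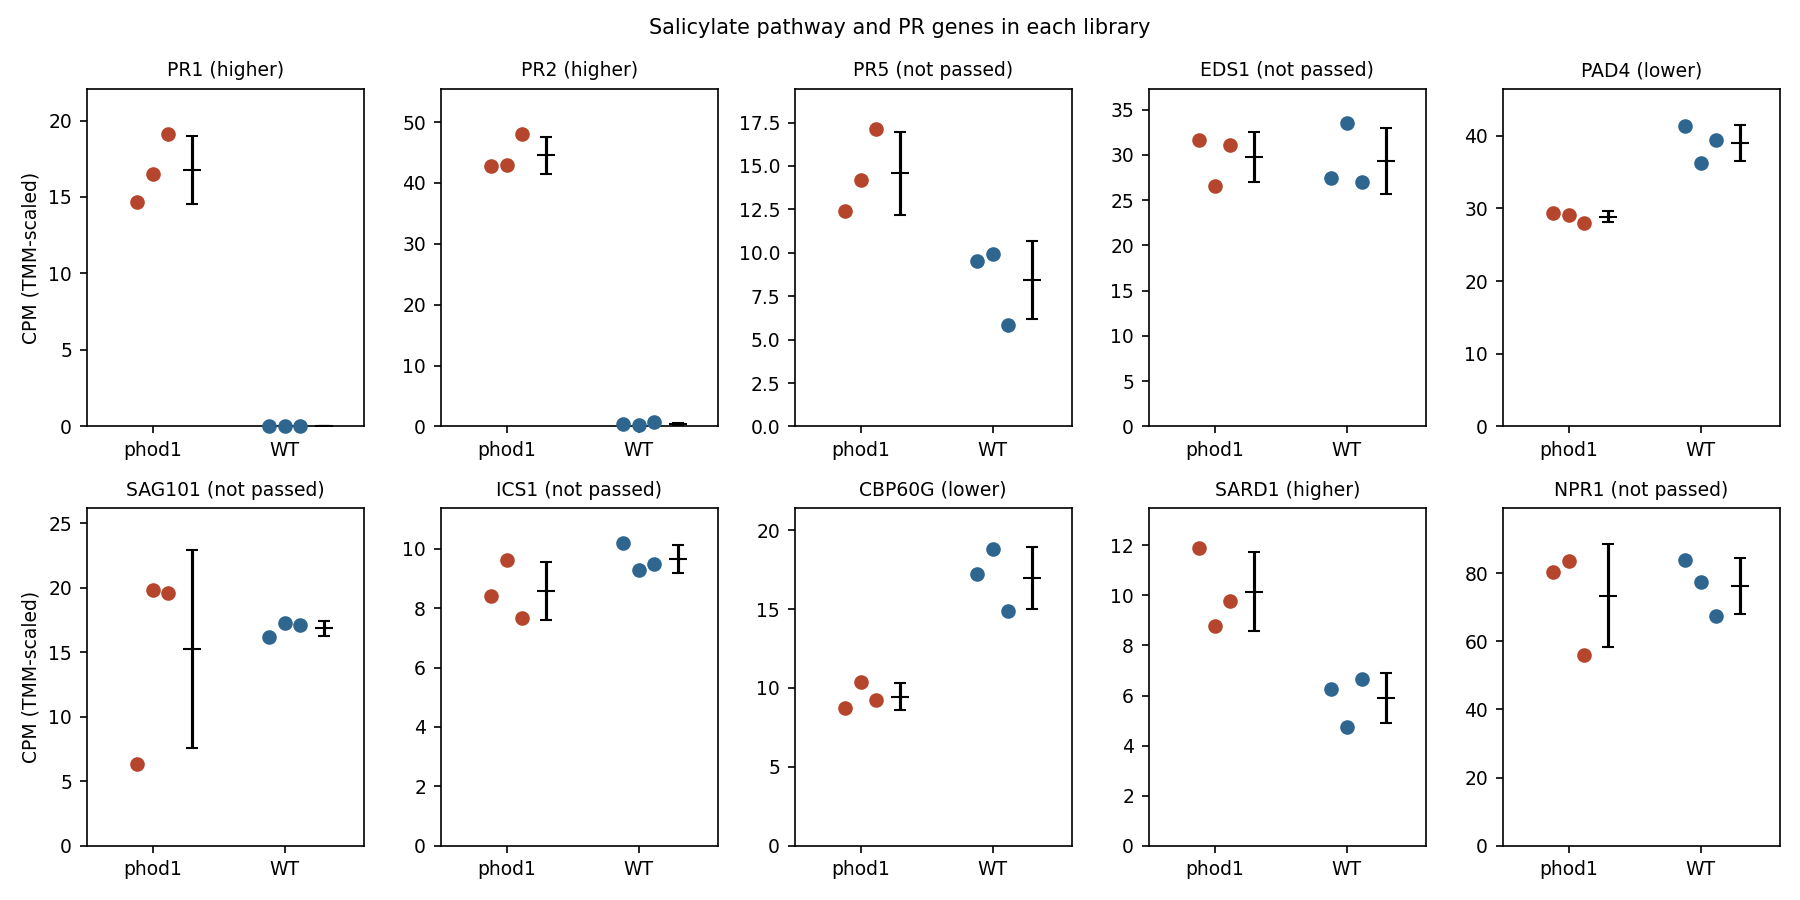
CPM of the 10 members in each of 3 phod1 libraries (left in each panel) and 3 WT libraries (right), with bars for the mean and SD; each panel has its own linear axis from 0 and names the call of the edgeR test. PR1 and PR2 sit near 0 in WT, SAG101 has 1 low phod1 library at 6.35 CPM, and PAD4 and CBP60G lie lower in phod1.

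PR1, PR2 and PR5 encode proteins that accumulate when salicylate signalling is on, and their transcripts serve as its usual readout. PR1 (AT2G14610, on chromosome 2), which encodes a secreted antimicrobial protein of the CAP family, stood at 14.7, 16.5 and 19.1 CPM in the phod1 libraries and at 0 in all 3 WT libraries. The mean of 16.8 ± 2.20 CPM in phod1 was at least 41.5-fold above the highest WT floor of 3 fragments (adjusted p = 4.64e-04). PR2 (AT3G57260, chromosome 3), a beta-1,3-glucanase that attacks fungal cell walls, stood at 42.7, 42.9 and 48.0 CPM in phod1, against 0.438, 0.299 and 0.644 CPM in WT. Its log2 fold change was 6.61 (SE 0.307, adjusted p = 1.82e-04), and the WT values rest on few fragments, with 13, 14 and 20 units in the 3 libraries. The calls of PR1 and PR2 held under every alternative tried.

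PR5 (AT1G75040, chromosome 1), a thaumatin-like protein, behaved less sharply. It stood at 12.4, 14.2 and 17.1 CPM in phod1, against 9.53, 9.92 and 5.83 CPM in WT. The genotypes did not overlap, yet the log2 fold change of 0.79 (SE 0.247, 95% interval 0.18 to 1.40) missed the threshold (adjusted p = 0.0647). In the authors' deposited table PR5 is listed with a log2 fold change of 0.78 and an adjusted p of 0.0215. That deposited table lists 6 of the 10 members, PR1, PR2, PR5, PAD4, CBP60G and SARD1, and 28.3% of all genes with a count. The phod1 3 library held the highest value of all 3 PR genes, and WT 3 the lowest of PR5. Of the 10 members, 6 had values that did not overlap between genotypes, where 47.6% of all genes tested did so.

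Of the close relatives of these genes, PRB1 and BG3 also differed. PRB1 (AT2G14580), a basic PR1-type gene on the same chromosome whose coding sequence is 83.5% identical to that of PR1 over 486 aligned bases, stood at 9.93 ± 0.858 CPM in phod1 and 3.15 ± 1.26 CPM in WT (log2 1.65, SE 0.328, adjusted p = 0.0155). This call was lost without phod1 3 (adjusted p = 0.0506). Unlike PR1, PRB1 was present in every WT library, at 1.77 to 4.23 CPM. Per kilobase of exon, PR1 made up 61.1% to 63.2% of PR1 and PRB1 together in phod1 and 0% in WT. BG3 (AT3G57240), a beta-1,3-glucanase gene near PR2 with 75.1% identity in the coding sequence, stood at 4.73 to 6.06 CPM in phod1 and at 0 to 0.171 CPM in WT, where the 3 libraries held about 3 fragments in all. The ratio was 48.2 with a 95% exact Poisson counting interval from 16.2 to 236 (adjusted p = 0.00299). BG3 reached the count minimum in phod1 only, and so could pass the filter only by standing higher there. BG1, the gene next to PR2 on the same strand, did not pass the filter, with at most 13 units in any library. The sources used here do not say how reads of such similar copies were assigned, so the split between them is uncertain.

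PR3 and PR4, a chitinase and a hevein-like protein, are more usually read as outputs of jasmonate and ethylene. Both rose, PR3 (AT3G12500) to 9.69 ± 0.940 CPM in phod1 against 3.29 ± 1.17 CPM in WT (log2 1.55, SE 0.290, adjusted p = 0.0125), and PR4 (AT3G04720) to 127 ± 4.15 CPM against 28.9 ± 3.39 CPM (log2 2.13, SE 0.114, adjusted p = 2.39e-04).

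Upstream of the outputs, ICS1 (AT1G74710, chromosome 1), the main isochorismate synthase, stood at 8.41, 9.61 and 7.67 CPM in phod1, against 10.2, 9.30 and 9.47 CPM in WT. The ranges overlapped, and the log2 fold change of -0.17 (SE 0.133, adjusted p = 0.394) has a 95% interval of -0.50 to 0.15. ICS2 (AT1G18870), its minor copy with 79.7% identity in the coding sequence, was higher, at 9.90, 6.85 and 11.2 CPM in phod1, against 2.46, 2.52 and 3.83 CPM in WT (log2 1.67, SE 0.277, adjusted p = 0.00878). Per kilobase of exon, ICS2 accounted for 55.0%, 42.6% and 60.2% of both isochorismate synthase transcripts in phod1, against 20.0%, 21.9% and 29.6% in WT. The ICS2 model overlaps that of AT1G18871, which has no counts here, by 87 bases on the opposite strand.

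The transcription factor genes CBP60G and SARD1, which both act on ICS1, went opposite ways. CBP60G (AT5G26920, chromosome 5), a calmodulin-binding factor, stood at 8.72, 10.4 and 9.22 CPM in phod1, against 17.2, 18.8 and 14.9 CPM in WT. It fell by 0.84 on the log2 scale (SE 0.136, adjusted p = 0.00787), with no overlap between genotypes, and the call held under every alternative tried (adjusted p from 2.10e-06 to 0.0411). SARD1 (AT1G73805, chromosome 1), its relative that does not need calmodulin, stood at 11.9, 8.78 and 9.78 CPM in phod1, against 6.26, 4.76 and 6.64 CPM in WT. It rose by 0.79 on the log2 scale (SE 0.194, adjusted p = 0.0309), again with no overlap. The call of SARD1 was lost without phod1 1, phod1 3, WT 1 or WT 2 (adjusted p from 0.0660 to 0.0895). The SARD1 model overlaps that of AT1G73790 on the opposite strand by 640 bases, and that model held 0, 11 and 2 units in phod1 and 36, 83 and 0 units in WT, beside 341 to 456 and 186 to 223 units on SARD1. No strand setting is stated, so reads of that overlap cannot be told apart.

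The promoters of ICS1 and of SARD1 are shown because they stand for a synthesis gene with no detectable change and a regulator that rose. Each run holds 250 bases before the annotated start of the gene and 50 after it, read 5′ to 3′ on the gene's strand from RefSeq's TAIR10.1 assembly, with the start taken from the annotation of that assembly. The coordinates are chr1:28070045-28070344 on the plus strand for ICS1 and chr1:27749199-27749498 on the minus strand for SARD1. Capitals mark TGACG, the core bound by TGA factors, TTGAC, the core of the W box bound by WRKY factors, and GAAATTT, a motif reported for CBP60G and SARD1, each on either strand.
ICS1: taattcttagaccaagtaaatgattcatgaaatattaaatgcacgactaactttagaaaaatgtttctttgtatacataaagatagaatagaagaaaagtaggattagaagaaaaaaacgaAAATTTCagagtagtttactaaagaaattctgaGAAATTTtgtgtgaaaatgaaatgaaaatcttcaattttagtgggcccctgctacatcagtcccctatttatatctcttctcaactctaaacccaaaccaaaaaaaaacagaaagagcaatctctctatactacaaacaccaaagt
SARD1: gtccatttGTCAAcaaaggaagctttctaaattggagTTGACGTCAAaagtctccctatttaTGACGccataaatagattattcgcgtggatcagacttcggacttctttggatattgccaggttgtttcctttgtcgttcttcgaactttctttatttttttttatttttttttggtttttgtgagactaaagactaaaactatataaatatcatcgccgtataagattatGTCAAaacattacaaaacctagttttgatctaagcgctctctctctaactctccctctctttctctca
ICS1 has 2 GAAATTT in this window, and SARD1 has 3 TGACG and 4 TTGAC, some of which overlap in TTGACG. Of the 9 members whose promoters were read, 7 had TTGAC, where 50.5% of 27443 promoters of protein-coding genes did. TGACG was found in 2 members, CBP60G and SARD1, against 23.1% of all promoters, and GAAATTT in ICS1 alone, against 14.2%. A match is a description of these letters only.

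Of the 3 lipase-like genes, which act as pairs of EDS1 with PAD4 or SAG101, PAD4 alone passed. EDS1 (AT3G48090, chromosome 3) stood at 31.6, 26.6 and 31.1 CPM in phod1, against 27.5, 33.5 and 27.0 CPM in WT. Its ranges overlapped, with a log2 fold change of 0.02 (SE 0.132, 95% interval -0.31 to 0.34, adjusted p = 0.935). PAD4 (AT3G52430, chromosome 3) stood at 29.4, 29.1 and 28.0 CPM in phod1, against 41.3, 36.3 and 39.4 CPM in WT. It fell by 0.43 on the log2 scale (SE 0.0921, adjusted p = 0.0190) with no overlap. The call of PAD4 was lost without any one phod1 library or without WT 1 (adjusted p from 0.0526 to 0.0624) and on library totals alone, where its log2 fold change was -0.06 beside a median of 0.39 over all genes.

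SAG101 (AT5G14930, chromosome 5) varied most among the phod1 libraries, at 6.35, 19.8 and 19.6 CPM, against 16.2, 17.3 and 17.1 CPM in WT. With all libraries its log2 fold change was -0.14 (SE 0.426, 95% interval -1.20 to 0.91, adjusted p = 0.845). Without phod1 1 it was 0.22 (adjusted p = 0.224), so the sign of this difference rests on that library. The adjoining models on either side held 3827 and 378 units in phod1 1, against 3727 to 3794 and 319 to 501 units in the other phod1 libraries. EDS1B (AT3G48080), the tandem copy of EDS1 with 84.0% identity in the coding sequence, stood at 1.93, 2.91 and 0.989 CPM in phod1, against 0.168, 0.576 and 0 CPM in WT. Its log2 fold change of 2.87 did not pass (SE 1.04, adjusted p = 0.0975), though the authors' deposited table lists it with an adjusted p of 0.0324. Without WT 2, the highest WT library, it was 4.50 (adjusted p = 0.0568). It made up 3.06% to 9.77% of both copies per kilobase in phod1 and 0% to 1.67% in WT. The EDS1B model overlaps that of AT3G48070, which has no counts here, by 503 bases on the opposite strand. Reads of that overlap cannot be told apart either. Among the partners of the lipase-like proteins, the helper receptor gene ADR1 (AT1G33560) rose to 22.8 ± 1.81 CPM in phod1, against 11.8 ± 1.19 CPM in WT (log2 0.95, SE 0.122, adjusted p = 0.00364). Its relatives ADR1-L1 and ADR1-L2 did not pass, nor did NDR1, another immune signalling gene of the list.

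NPR1 (AT1G64280, chromosome 1), the receptor whose activity is set largely at the protein level, stood at 80.4, 83.6 and 56.1 CPM in phod1, against 83.9, 77.4 and 67.4 CPM in WT. The ranges overlapped, and the log2 fold change was -0.06 (SE 0.180, 95% interval -0.50 to 0.39, adjusted p = 0.860). Its relatives NPR3 and NPR4, salicylate receptors that repress the same outputs, did not pass either. NPR3 (AT5G45110) stood at 28.6, 13.1 and 27.6 CPM in phod1, against 34.1, 20.6 and 16.3 CPM in WT. NPR4 (AT4G19660) stood at 16.9, 9.58 and 43.4 CPM in phod1, against 40.9, 45.9 and 46.9 CPM in WT. The phod1 3 library of NPR4 lay among the WT values, and without it the log2 fold change was -1.75 (adjusted p = 0.0188) in place of -0.94 (adjusted p = 0.263).

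Per kilobase of exon, so that genes can be compared, the order of the members differed between the genotypes. In phod1, PR2 (30.1 ± 2.05 CPM per kilobase) and NPR1 (28.1 ± 5.75) led and overlapped, followed by PR1 (18.6 ± 2.44). PR5 (13.3 ± 2.19), PAD4 (12.8 ± 0.331) and EDS1 (11.7 ± 1.08) came next, each overlapping its neighbour. SAG101 (6.93 ± 3.51), SARD1 (4.24 ± 0.667), CBP60G (4.10 ± 0.380) and ICS1 (3.93 ± 0.448) formed the low end, again with overlap between neighbours. In WT, NPR1 (29.2 ± 3.19) led, above PAD4 (17.3 ± 1.11) and EDS1 (11.5 ± 1.41). PR5 (7.70 ± 2.06), SAG101 (7.66 ± 0.285) and CBP60G (7.37 ± 0.848) overlapped as neighbours and stood above ICS1 (4.44 ± 0.227) and SARD1 (2.46 ± 0.414). PR2 (0.312 ± 0.118) and PR1 (0) closed the WT order.

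**Figure D2:**
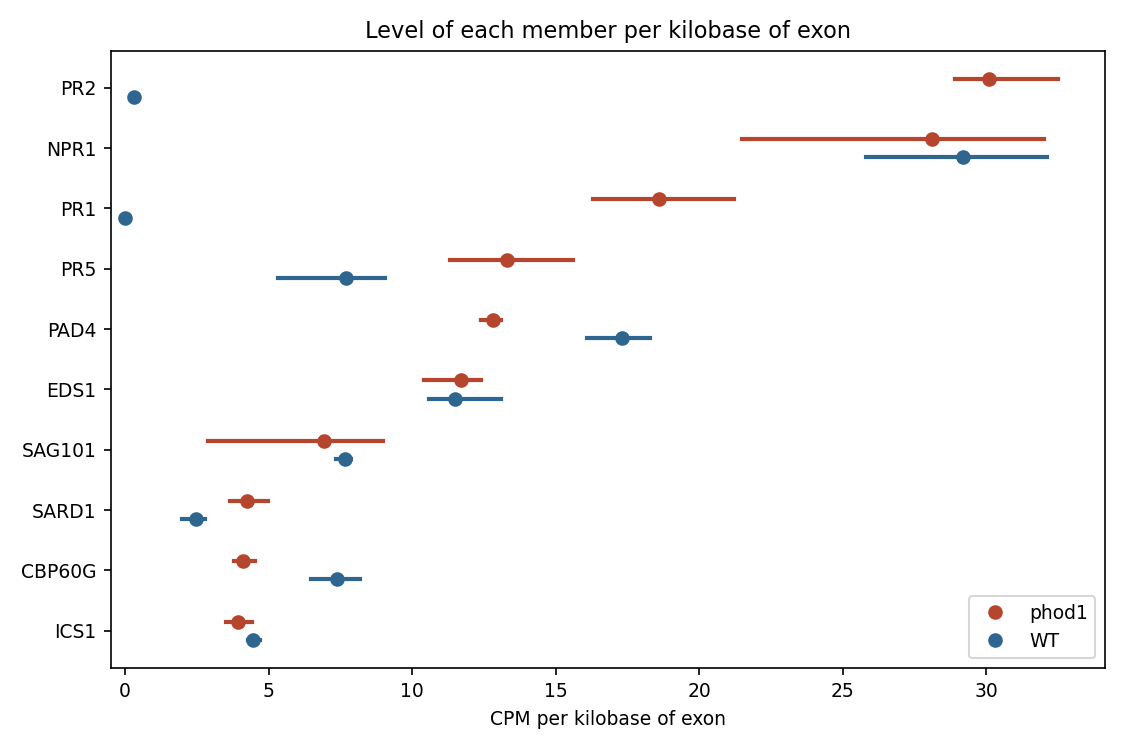
Level of each member in CPM per kilobase of exon on a linear axis, with phod1 drawn above WT; points are means of 3 libraries and lines run from the lowest to the highest. PR2 reaches 30.1 in phod1 against 0.312 in WT, while NPR1 and EDS1 overlap between the genotypes.

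The wider salicylate network was read from a list of 51 further genes, of which 47 were in the table and 41 passed the filter. This list was chosen with earlier results of these data known, so its shares describe the listed genes and are no test. Of the 41, 22 were higher in phod1, 1 was lower and 18 did not pass, with a median log2 fold change of 1.37, also with genes at 0 in WT at their bound. The median of all genes tested was 0.014, and 14.6% of them were higher and 13.0% lower. Of these genes 9 reached the count minimum in every phod1 library but not in every WT library. Those that reached it in no WT library could pass the filter only by standing higher in phod1. Others, such as ACD6 and NIMIN1, also reached it in some WT libraries. Of the 32 that reached it in both genotypes, 17 were higher, 1 lower and 14 did not pass, with a median of 0.60. All genes tested under that same condition gave 14.3% higher and 13.8% lower.

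**Figure D3:**
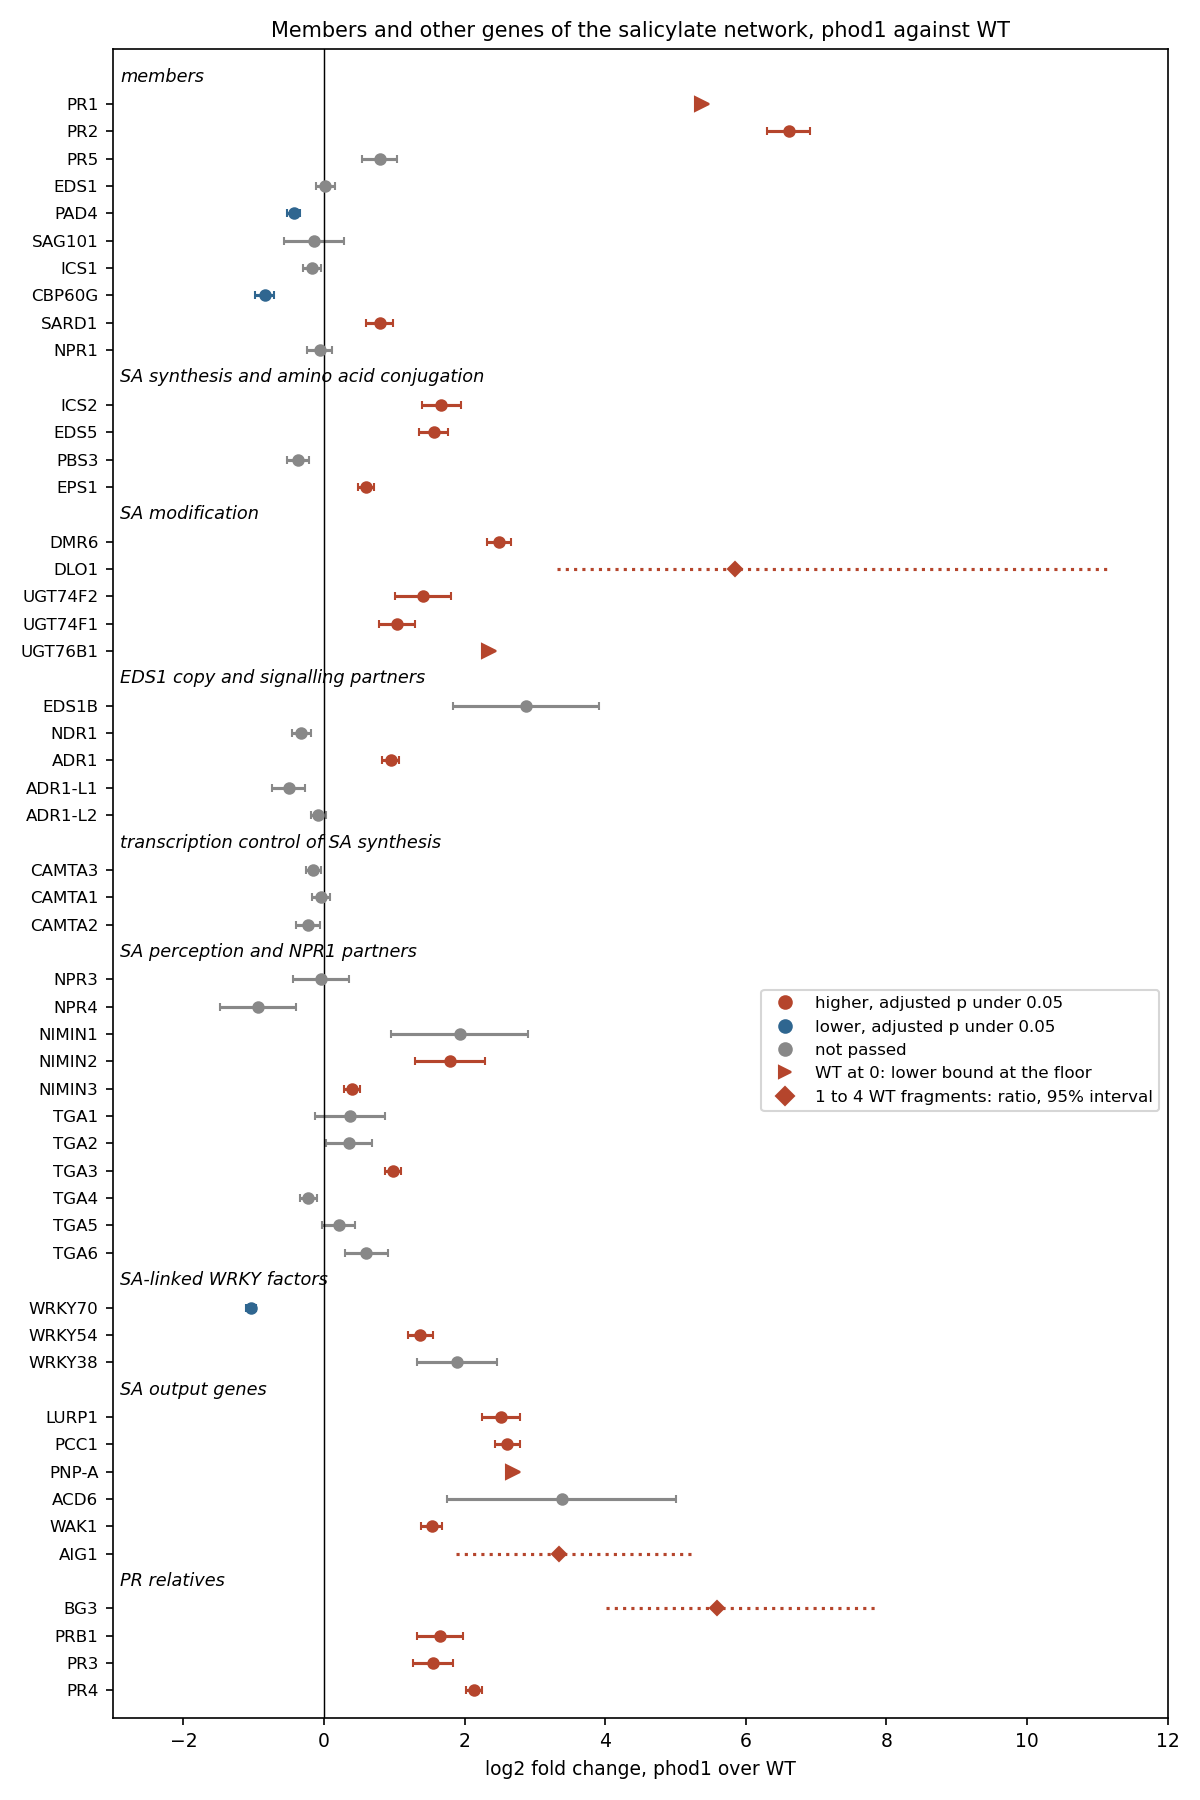
Log2 fold change of phod1 over WT for the 10 members and the 41 tested genes of the network list, grouped by role; circles with SE bars come from the edgeR fit, triangles are lower bounds for genes at 0 in WT, and diamonds are fragment ratios with 95% counting intervals. All 5 salicylate modification genes tested lie above 0, and WRKY70 is the only network gene called lower.

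Of 4 listed genes of salicylate synthesis other than ICS1, 3 were called higher and none lower. Over all genes tested, 14.6% were higher and 13.0% lower. EDS5 (AT4G39030), which exports the precursor from the chloroplast, stood at 5.12, 5.64 and 5.51 CPM in phod1, against 1.41, 2.22 and 1.87 CPM in WT (log2 1.56, SE 0.209, adjusted p = 0.00416). EPS1 (AT5G67160), which releases salicylate from the conjugate of isochorismate and glutamate, rose to 16.4 ± 1.43 CPM in phod1 against 10.8 ± 0.634 CPM in WT (log2 0.60, SE 0.114, adjusted p = 0.0131). PBS3 (AT5G13320), which makes that conjugate, stood at 7.63 ± 0.872 CPM in phod1 and 9.84 ± 1.28 CPM in WT. It did not pass (log2 -0.37, adjusted p = 0.143), though its values lay lower in phod1 with no overlap between genotypes.

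Genes whose products modify or remove salicylate rose in all 5 cases tested, where 14.6% of all genes tested did. Of these 5, DLO1 and UGT76B1 reached the count minimum in phod1 only, and so could pass the filter only by standing higher there. BSMT1, also listed, held 4 units in WT 2 and 0 in every other library, and was not tested. DMR6 (AT5G24530), a salicylate hydroxylase, stood at 31.2, 30.5 and 28.0 CPM in phod1, against 4.24, 6.40 and 5.25 CPM in WT (log2 2.49, SE 0.177, adjusted p = 5.24e-04). Its relative DLO1 (AT4G10500), also a salicylate hydroxylase, stood at 2.22, 1.13 and 3.05 CPM in phod1 and rested on 1 fragment in WT, which gives a ratio of 57.3 (95% exact Poisson counting interval 9.91 to 2300, adjusted p = 0.00856). That fragment lay in WT 2, and without that library DLO1 was at 0 in WT. The glucosyltransferase gene UGT76B1 (AT3G11340), which acts on salicylate and N-hydroxypipecolate, stood at 2.06 ± 0.206 CPM in phod1 and at 0 in WT, at least 5.10-fold higher (adjusted p = 0.00247). The tandem glucosyltransferase genes UGT74F2 (AT2G43820) and UGT74F1 (AT2G43840), 84.1% identical in coding sequence, rose by 1.41 and 1.04 on the log2 scale (adjusted p = 0.0478 and 0.0303). Both calls were fragile, since that of UGT74F2 was lost without any one library except phod1 2 and that of UGT74F1 without any one except phod1 2 (adjusted p from 0.0671 to 0.127). The call of UGT74F2 was also lost with limma-voom (adjusted p = 0.0578) and, like those of NIMIN2, NIMIN3 and AIG1 below, with no filter on low counts (adjusted p from 0.0506 to 0.0704).

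Among the genes of perception, 3 of 11 tested rose, 8 did not pass and none fell. The share that passed, 27.3%, was close to the 27.7% over all genes tested (14.6% higher and 13.0% lower). TGA3 (AT1G22070), a bZIP factor that binds PR promoters with NPR1, rose to 66.2, 72.4 and 77.6 CPM in phod1, against 40.8, 33.2 and 35.6 CPM in WT (log2 0.98, SE 0.118, adjusted p = 0.00295). The other 5 TGA genes listed, TGA1, TGA2, TGA4, TGA5 and TGA6, overlapped between genotypes. NIMIN2 (AT3G25882) and NIMIN3 (AT1G09415), which encode proteins that bind NPR1, rose by 1.79 (adjusted p = 0.0450) and 0.40 (adjusted p = 0.0428) on the log2 scale. Neither call was stable, as that of NIMIN2 was lost without phod1 1, phod1 2, phod1 3 or WT 2 and that of NIMIN3 without any one library except phod1 2. None of the 3 CAMTA genes tested, repressors of salicylate synthesis, passed.

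Of 3 WRKY genes linked to salicylate that were tested, 1 was higher, 1 was lower and 1 did not pass. Over all genes tested, 14.6% were higher and 13.0% lower. WRKY70 (AT3G56400), a factor that favours salicylate over jasmonate responses, stood at 39.5, 41.2 and 40.7 CPM in phod1, against 85.8, 82.5 and 81.5 CPM in WT, and fell by 1.04 on the log2 scale (SE 0.0749, adjusted p = 5.46e-04). Its close relative WRKY54 (AT2G40750) stood at 14.6, 11.8 and 15.4 CPM in phod1, against 6.26, 4.69 and 5.25 CPM in WT, and rose by 1.37 (SE 0.174, adjusted p = 0.00349). WRKY38 (AT5G22570) stood at 0.782 ± 0.312 CPM in phod1 and 0.202 ± 0.121 CPM in WT, where its values lay near or below the floor. It did not pass (log2 1.89, SE 0.572, adjusted p = 0.0588), though the genotypes did not overlap. WRKY62 did not pass the filter.

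Of 6 further output genes tested, 5 rose, where 14.6% of all genes tested did. Of the 6, PNP-A, AIG1 and ACD6 reached the count minimum in every phod1 library but not in every WT library. PNP-A and AIG1 reached it in no WT library, and so could pass the filter only by standing higher in phod1. ACD6 missed it in WT 2 alone. LURP1 (AT2G14560), a gene induced on infection, stood at 9.64, 9.22 and 11.0 CPM in phod1, against 1.68, 2.30 and 1.19 CPM in WT (log2 2.52, SE 0.269, adjusted p = 0.00199). PCC1 (AT3G22231), a small gene of pathogen and clock control, stood at 22.9, 21.8 and 17.3 CPM in phod1, against 3.57, 2.86 and 3.74 CPM in WT (log2 2.61, SE 0.179, adjusted p = 4.86e-04). The wall-associated kinase gene WAK1 (AT1G21250) rose to 60.8 ± 9.96 CPM in phod1 against 21.1 ± 1.56 CPM in WT (log2 1.53, SE 0.151, adjusted p = 0.00151). PNP-A (AT2G18660), a natriuretic peptide-like gene, stood at 2.61 ± 0.749 CPM in phod1 and at 0 in WT, at least 6.46-fold higher (adjusted p = 0.00367). AIG1 (AT1G33960) rested on about 4 fragments in WT, with a ratio of 10.1 and a counting interval of 3.67 to 38.7 (adjusted p = 0.0490), a call lost without any one library except WT 2, the one at 0. ACD6 (AT4G14400), an ankyrin membrane protein that raises salicylate, was picked out after its values were seen. It stood at 138, 143 and 135 CPM in phod1, against 24.1, 0 and 15.8 CPM in WT, and did not pass (adjusted p = 0.187). Without WT 2, where it is listed at 0, its log2 fold change was 2.80 (adjusted p = 0.00329).

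**Figure D4:**
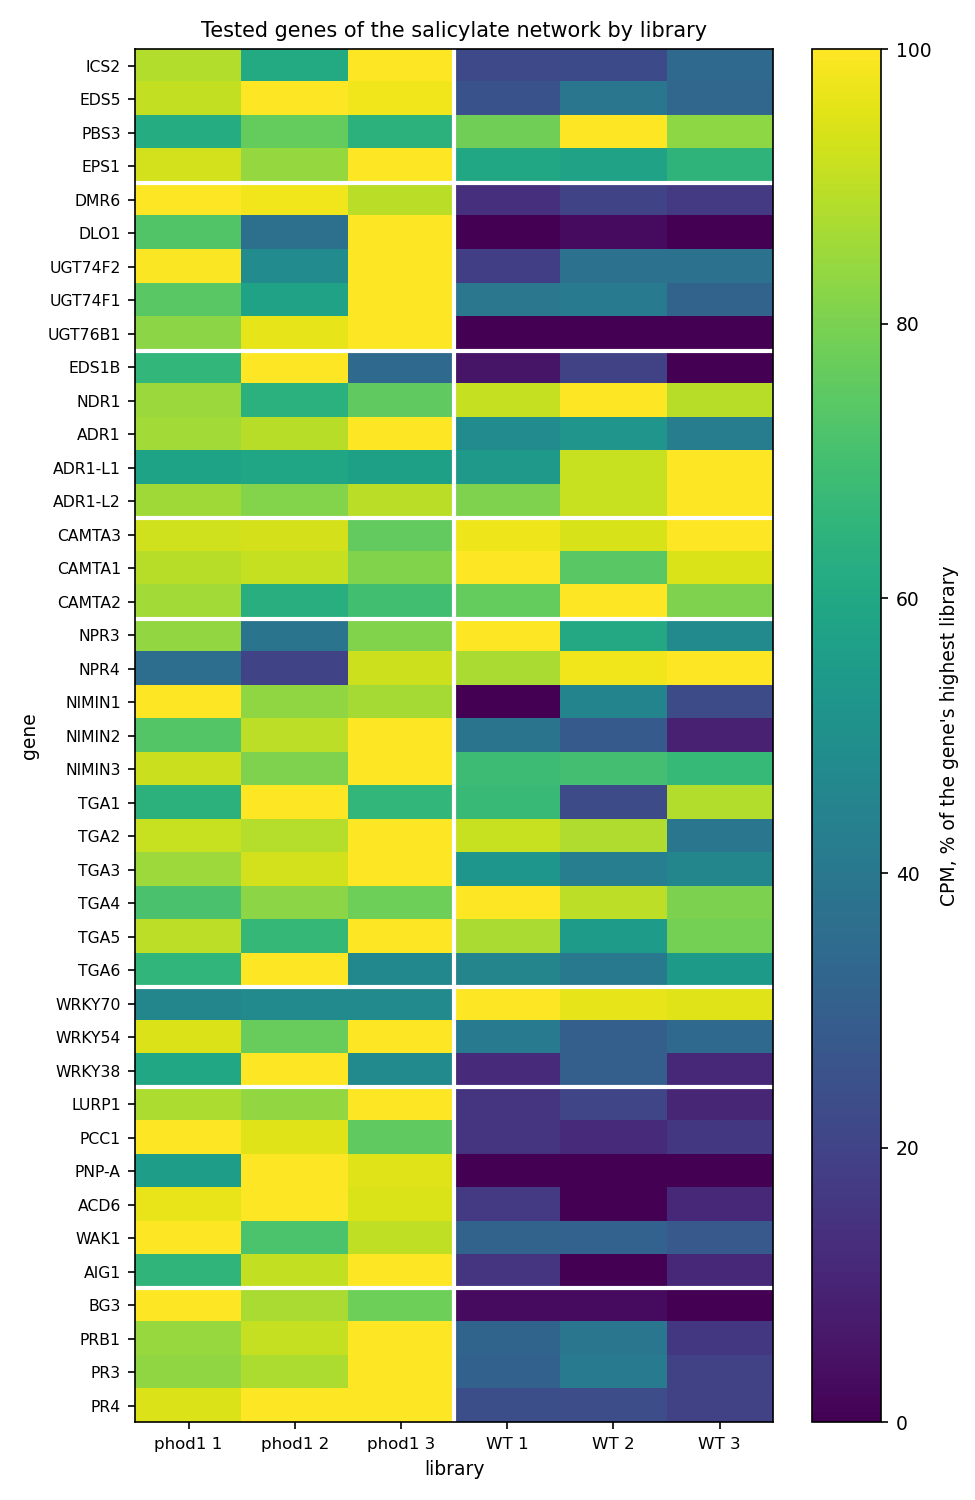
CPM of the 41 tested network genes in each library as a percentage of the gene's highest library, with phod1 libraries left of WT libraries and white lines between the role groups. DMR6, LURP1 and PCC1 are bright in all 3 phod1 libraries and dark in all 3 WT libraries, WRKY70 shows the opposite, and ACD6 is at 0 in WT 2.

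The pipecolate pathway of systemic resistance, which also leads to PR1 induction, was barely represented. ALD1 (AT2G13810) was at 0 in all 6 libraries, and FMO1 (AT1G19250) held at most 8 units in any phod1 library and 0 units in WT, so neither was tested.

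The 3 genes whose values over the 6 libraries were most like those of PR1, by the root mean square difference of log2 CPM centred on each gene's mean, were AT4G36430 (0.0983), GSTU2 (AT2G29480, 0.156) and AT5G03545 (0.191). AT4G36430 stood at 15.1 ± 1.19 CPM in phod1 and GSTU2, a glutathione transferase gene, at 14.0 ± 0.901 CPM, and both were at 0 in WT. AT5G03545, named AT4 in the authors' deposited table and known as a non-coding RNA of phosphate starvation, stood at 487 ± 20.4 CPM in phod1 and 3.67 ± 0.545 CPM in WT. This likeness depends on the prior count of 4 units that stands in for a WT value of 0.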

How the data were processed

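Per the labels, RNA of 3 phod1 and 3 WT shoot samples was purified on plant columns with DNase and made into Illumina libraries. The deposited estimated counts are whole numbers per gene and sample, without normalization. Per the submitters' processing notes, TAIR10 was the build and StringTie, STAR and CASAVA 1.4 were used, with no role or order. The sources used here do not give the counting command, strand setting or filters. The authors also deposited their own comparison, with log2 fold changes and standard errors, p-values and adjusted p-values, a test score and a mean normalized signal per gene, per the file headers.

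The design assumed read counts; the same test was kept for estimated counts, which rounding left unchanged. The value 4 occurred 1703 times against 562 for 3 and 832 for 5, so 1 fragment was taken as 4 units and the floor as 3 fragments, or 12 units. The values 1 and 2 also occurred, 595 and 533 times, so this conversion is approximate. The floors, lower bounds and counting intervals rest on it. Genes passing filterByExpr of edgeR (minimum count 10, minimum total 15; 10803 of 21693) were scaled by TMM and tested in R 4.3.3 with edgeR 4.0.16 (quasi-likelihood F-test on genotype alone with glmQLFit and glmQLFTest, two-sided, Benjamini-Hochberg over all genes tested, threshold 0.05). The SE is the log2 fold change over the square root of F, and intervals are 95%. A fold against a genotype at 0 is a lower bound at the highest WT floor of 0.404 CPM. The fit was checked on simulated counts. Alternatives used DESeq2 1.42.0, limma 3.58.1 (voom), other scalings and filters, a replicate block and each library left out.

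Exon lengths, overlaps, identities and promoters came from TAIR10.1, in which all 10 members had a locus; the count table holds no coordinates. The promoter of 1 member is not reported here. Coding sequences were aligned globally with Biopython 1.88. The members and lists were chosen with earlier results of these data known. The text names all members, every network gene that passed, EDS1B, ICS2, NPR3, NPR4, BG3 and PRB1, and the 3 genes most like PR1. In the network list, NRG1.1, NRG1.2, CBP60A and SARD4 were not analysed here. Of the shoot markers, RBCS3B was not analysed here. Genes that reached the count minimum in every library of 1 genotype only were counted apart, a choice made after seeing the data.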

Additional observations from a re-analysis of the deposited data

How the results depend on the processing

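Under the 13 alternatives to the whole fit the number of genes that passed ranged from 1500 with the replicate block to 4162 on library totals, against 2988. With the replicate number as a block, 1500 genes, 3 of the 10 members and 12 network genes passed, against 2988, 5 and 23, and among members the calls of PAD4 (adjusted p = 0.0829) and SARD1 (adjusted p = 0.0555) were lost. The network calls lost with that block were those of EPS1, DLO1, UGT74F2, UGT74F1, UGT76B1, NIMIN2, NIMIN3, PNP-A, AIG1, PRB1 and PR3 (adjusted p from 0.0505 to 0.137). Same-numbered libraries did not deviate together (correlations of -0.01, -0.05 and 0.01). Whether they shared growth or preparation is not stated, and these correlations cannot settle it. With 1 library left out, 2128 to 2531 genes, 3 to 5 members and 18 to 21 network genes passed. PR5 passed with DESeq2 (adjusted p = 0.0218) and on library totals (adjusted p = 0.0107), where EDS1 also passed at a log2 fold change of 0.40 (adjusted p = 0.0451), close to the median of 0.39 over all genes there. WRKY38 passed with DESeq2, on library totals and without WT 2, EDS1B with DESeq2 (adjusted p = 0.0329), and ADR1-L1 without WT 1 (log2 -0.72, adjusted p = 0.00794). Of 700 comparisons of a single gene with its main value, 615 kept direction and side of the threshold, 52 lost the call, 10 gained one and 23 changed sign, in each case with no call in either fit. On library totals the sign changed for SAG101 (0.23), ICS1 (0.21), NPR1 (0.33), PBS3 (0.02), NDR1 (0.06), ADR1-L2 (0.29), CAMTA3 (0.23), CAMTA1 (0.34), CAMTA2 (0.15), NPR3 (0.34) and TGA4 (0.16), all below the median of 0.39 over all genes there. With 1 library left out it changed for EDS1 (-0.04 to 0.13), SAG101 (-0.38 to 0.22), NPR1 (-0.16 to 0.11), CAMTA1 (-0.15 to 0.05), NPR3 (-0.24 to 0.32) and TGA1 (-0.01 to 0.77). The low fragment counts in WT limit the folds of PR1, PR2, BG3, DLO1, UGT76B1, PNP-A and AIG1.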
